A study of Mus musculus with 36 samples.

Results

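The genes described here repair or tolerate the DNA adducts that the tobacco nitrosamine NNK leaves in lung. They are 10 named genes, taken by the gene symbol of the array's annotation: Mgmt, Alkbh2, Alkbh3, Mpg, Apex1, Polb, Xrcc1, Lig3, Parp1 and Polk. Each of the 10 had 1 probe set, and all 10 were among the 14953 genes tested, of 19938 genes named by a single symbol. Total RNA of mouse lung was measured on 36 microarrays. A/J mice given NNK (4-(methylnitrosamino)-1-(3-pyridyl)-1-butanone, injected at 100 mg/kg weekly over 4 weeks) gave 8 arrays, 2 at each of weeks 3, 6, 9 and 12 after exposure. C3H mice given the same NNK course gave 8 arrays at the same weeks. Untreated A/J and untreated C3H mice gave 10 arrays each, 2 at each of weeks 0, 3, 6, 9 and 12. No age or sex of the mice and no genetic change beyond the strain stands in the labels, and lungs were taken before mature tumours had formed. Whether both arrays of a group stem from different mice is not stated, so each p-value reflects the spread between the arrays alone, and this spread may be technical.

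Metabolically activated NNK methylates and pyridyloxobutylates DNA bases. Cells remove such damage by several routes. In direct reversal, Mgmt transfers an alkyl group from the O6 position of guanine to itself, and the AlkB dioxygenases Alkbh2 and Alkbh3 oxidise methyl groups off adenine and cytosine. In base excision repair, the glycosylase Mpg cuts out N-methylated purines, Apex1 incises the abasic site, Polb fills the gap, and Lig3, held by the scaffold protein Xrcc1, seals it, while Parp1 senses the strand break. Polk is a translesion polymerase that copies past bulky adducts on the minor groove side of guanine, and so lets replication pass damage that was not removed. A/J mice are widely used because they form lung tumours readily, and C3H mice form fewer.

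Levels below are normalized log2(intensity + 16) values, differences are on that log2 scale with the standard error (SE) of the fit, and a gene is said to change where limma's Benjamini-Hochberg adjusted p was under 0.05 over all genes tested. Array medians of the deposited intensities ran between 285 and 347. Mgmt stood at the 34.1st and Mpg at the 39.8th percentile of mean level over all genes, close enough to the dim end for the added 16 to shrink their differences. Levels of different genes come from different probes and are not set against each other. The arrays read as lung: over weeks 3 to 12 the mean level of 6 alveolar type 2 markers was 12.95 or more in every array. Some arrays also had raised markers of other tissue. The mean of 6 cornified skin markers was 7.76 to 7.93 in NNK-treated A/J arrays. It was 11.2 and 11.6 in both week 6 arrays of untreated A/J and 9.03 in the second of week 0. In that week 0 array Lor stood out, at 13.65 against 6.91 in the first array of week 0. Krt1 (9.27 against 9.39) and Krt10 (8.10 against 8.33) were not raised there. The mean of 4 acute phase and mesothelium markers reached 12.0 and 10.6 in the NNK-treated C3H arrays of week 3, and 11.5 in the second untreated A/J array of week 3, against 8.59 to 8.94 in untreated C3H arrays. In whole lung, fewer cells of a type and less RNA per cell cannot be told apart.

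The strains differed in base excision and direct reversal genes without NNK. In untreated lungs Alkbh3 and Parp1 were higher in A/J, and Mpg, Polb and Xrcc1 were lower in A/J, by 1.22 to 1.41-fold. Each gene rests on 1 probe set, and whether its probes bind the sequence of both strains alike was not tested, so these are differences in signal that need not all be in RNA level. Over weeks 3 to 12 the mean of 4 alveolar macrophage markers spanned 9.10 to 9.42 in untreated A/J and 9.50 to 9.70 in untreated C3H arrays. That of 5 endothelial markers overlapped, at 12.42 to 12.60 and 12.32 to 12.46. The part of cell makeup in the strain differences was not tested. Lig3 and Polk were lower in A/J by less, and Mgmt, Alkbh2 and Apex1 did not pass the test. In all, 7 of the 10 genes differed, 2 higher and 5 lower in A/J. Over all genes 56.1% differed between the untreated strains, 19.8% higher and 36.3% lower in A/J, so this count is near the background and only the single genes and their sizes are described. In the NNK-treated lungs 6 of the 10 differed, 3 in each direction, where 53.3% of all genes did (23.5% higher and 29.8% lower in A/J).

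**Figure D1:**
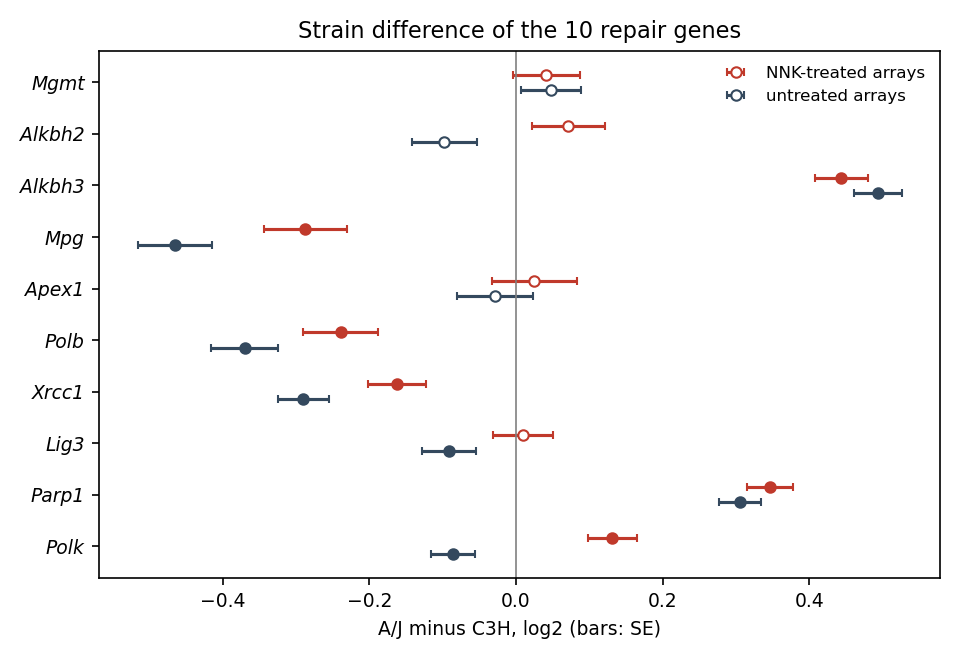
Strain difference of the 10 repair genes, A/J minus C3H in log2 units, in NNK-treated arrays (red, mean of weeks 3 to 12) and untreated arrays (dark, mean of weeks 0 to 12). Points are the fitted differences, bars the SE, and filled points passed limma's adjusted p of 0.05. Alkbh3 and Parp1 lie right of zero and Mpg, Polb and Xrcc1 left of it in both treatments, and Polk lies on opposite sides.

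Alkbh3 (probe set 10485282, chromosome 2), the AlkB enzyme that works on single-stranded DNA and RNA, was higher in A/J by more than any other of the 10. Its lowest, median and highest levels were 10.33, 10.46 and 10.57 in the untreated A/J arrays, against 9.89, 9.95 and 10.06 in the untreated C3H arrays. No A/J array overlapped a C3H array. The difference was 0.49 ± 0.032 (SE), or 1.41-fold (adjusted p = 1.76e-11, limma). With NNK the levels were 10.27, 10.48 and 10.57 in A/J, against 9.94, 10.003 and 10.10 in C3H, again without overlap, and the difference was 0.44 ± 0.036 (adjusted p = 1.03e-09, limma). Its partner in direct reversal, Alkbh2 (10532802, chromosome 5), which acts on double-stranded DNA, did not follow it. Alkbh2 levels were 8.98, 9.28 and 9.54 in untreated A/J arrays, against 9.14, 9.39 and 9.53 in untreated C3H arrays, and the ranges overlapped widely. The difference was -0.10 ± 0.044 (adjusted p = 0.0636, limma), and with NNK it was 0.07 ± 0.050 (adjusted p = 0.232, limma). The untreated difference passed at -0.111 to -0.134 when 1 of 5 arrays was left out, the first A/J array of week 0 or 12, the first C3H array of week 0, or the second C3H array of week 3 or 9.

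Mgmt (10558441, chromosome 7), the O6-methylguanine methyltransferase, did not pass the test between the strains. It had 7.73, 7.96 and 8.12 in untreated A/J arrays, against 7.66, 7.91 and 8.02 in untreated C3H arrays. The arrays overlapped, and the difference of 0.05 ± 0.041 had a 95% interval of -0.038 to 0.134 (adjusted p = 0.332, limma). The interval of its difference with NNK was -0.055 to 0.138 around 0.04. That value depended on the weeks: without week 3 it was 0.15 and passed (adjusted p = 0.0204, limma), and without week 6 and 1 untreated array of week 0 it was -0.0393 (adjusted p = 0.555).

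Parp1 (10352242, chromosome 1), the poly(ADP-ribose) polymerase that binds strand breaks, was also higher in A/J. Untreated arrays had 9.20, 9.34 and 9.53 in A/J, against 8.94, 9.05 and 9.10 in C3H, with no overlap. The difference was 0.31 ± 0.028 (adjusted p = 4.5e-09, limma). NNK-treated arrays lay at 9.30, 9.38 and 9.45 in A/J, against 8.97, 9.03 and 9.11 in C3H, also apart, and the difference was 0.35 ± 0.031 (adjusted p = 5.32e-09, limma).

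Mpg (10375038, chromosome 11), the alkyladenine glycosylase that opens base excision repair of methylated purines, was the lowest in A/J relative to C3H. Its levels were 7.66, 8.02 and 8.28 in untreated A/J arrays, against 8.27, 8.42 and 8.58 in untreated C3H arrays. A single A/J array, the second of week 3, reached above the lowest C3H array. This array had the raised acute phase and mesothelium markers, whose part in it was not tested. The difference was -0.47 ± 0.051, or 1.38-fold (adjusted p = 6.29e-08, limma). With NNK the ranges did not touch, at 7.96, 8.09 and 8.23 in A/J against 8.30, 8.40 and 8.45 in C3H, and the difference was -0.29 ± 0.057 (adjusted p = 0.000187, limma). Untreated Mpg averaged 7.96 in A/J and 8.42 in C3H over weeks 0 to 12, and 8.02 and 8.44 over weeks 3 to 12 alone.

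Polb (10577544, chromosome 8), the gap-filling polymerase, lay at 8.51, 8.77 and 8.91 in untreated A/J arrays, against 8.98, 9.11 and 9.25 in untreated C3H arrays. The 2 strains did not overlap, with a difference of -0.37 ± 0.046 (adjusted p = 3.97e-07, limma). With NNK they did overlap, at 8.73, 8.87 and 9.03 in A/J against 8.85, 9.15 and 9.26 in C3H. The low C3H array, the first of week 3, was the one with the highest acute phase and mesothelium markers. The other C3H arrays with NNK were at 9.04 or above. The difference with NNK was -0.24 ± 0.051 (adjusted p = 0.000438, limma).

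Xrcc1 (10550935, chromosome 7), the scaffold of the repair complex, had 8.51, 8.66 and 8.84 in untreated A/J arrays, against 8.90, 8.98 and 9.05 in untreated C3H arrays. The groups were apart, and the difference was -0.29 ± 0.035 (adjusted p = 3.07e-07, limma). With NNK the arrays were at 8.69, 8.80 and 8.83 in A/J against 8.87, 8.93 and 9.05 in C3H, and the difference was -0.16 ± 0.039 (adjusted p = 0.00139, limma). Its bound partner Lig3 (10379564, chromosome 11), the DNA ligase of this complex, overlapped between the strains. Lig3 levels were 8.93, 9.02 and 9.24 in untreated A/J arrays, against 9.06, 9.14 and 9.21 in untreated C3H arrays. The difference of -0.09 ± 0.037 (adjusted p = 0.0391, limma) did not pass on the deposited scale (-0.07, adjusted p = 0.098), without week 6 and 1 array of week 0 (-0.05, adjusted p = 0.376), or without any of 11 single untreated arrays (5 of A/J, 6 of C3H), where it was -0.0685 to -0.0937 (adjusted p up to 0.109). With NNK the Lig3 difference was 0.01 ± 0.041. Apex1 (10414522, chromosome 14), the abasic site endonuclease, differed by 0.02 ± 0.058 with NNK and by -0.03 ± 0.052 untreated, and neither passed the test (adjusted p = 0.742 and 0.667, limma). Apex1 levels were 8.72, 8.92 and 9.13 in untreated A/J arrays, against 8.80, 8.90 and 9.36 in untreated C3H arrays.

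Counted by overlap, 4 of the 10 genes had no untreated A/J array within the range of the untreated C3H arrays (Alkbh3, Polb, Xrcc1 and Parp1), as did 10.3% of all genes. With NNK the 4 were Alkbh3, Mpg, Xrcc1 and Parp1, against 15.7% of all genes.

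**Figure D2:**
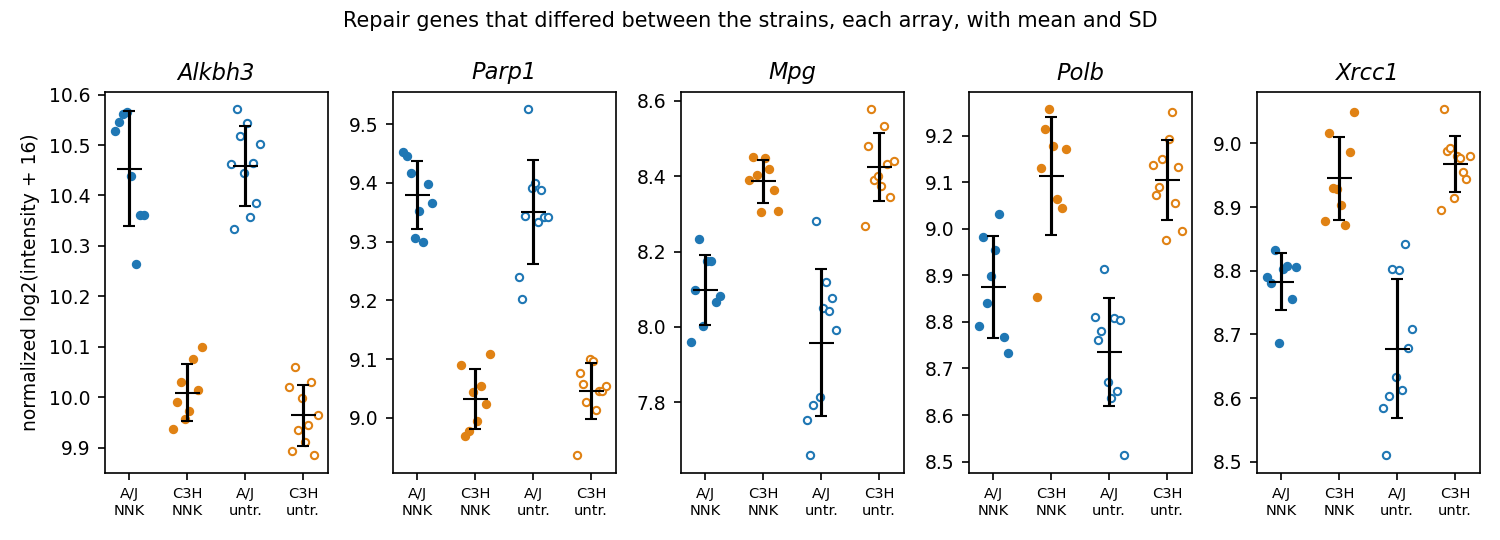
Levels of Alkbh3, Parp1, Mpg, Polb and Xrcc1 in each array as normalized log2(intensity + 16), for A/J (blue) and C3H (orange), NNK-treated (filled, 8 arrays each) and untreated (open, 10 arrays each). Black marks are means with SD. Alkbh3 and Parp1 sit higher in A/J and the other three lower, and single arrays of Mpg (untreated A/J) and Polb (NNK-treated C3H) reach into the other strain.

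After NNK, 1 of the 10 genes changed, the translesion polymerase gene Polk, which rose in A/J lungs by 0.29 ± 0.033, or 1.22-fold (adjusted p = 7.55e-06, limma). Over all genes 10% changed with NNK in A/J, 7.44% upward. In C3H lungs 0 of the 10 changed by limma, and 1 had an unadjusted p under 0.05, where 0.0803% of all genes passed and 936 had an unadjusted p under 0.05. The C3H gene was again Polk, at 0.07 ± 0.033 (adjusted p = 0.792, limma). The NNK change of Polk was larger in A/J than in C3H by 0.22 ± 0.047 (adjusted p = 0.0292, limma). Of all genes 1.13% passed this test of the difference, and the other 9 repair genes did not.

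**Figure D3:**
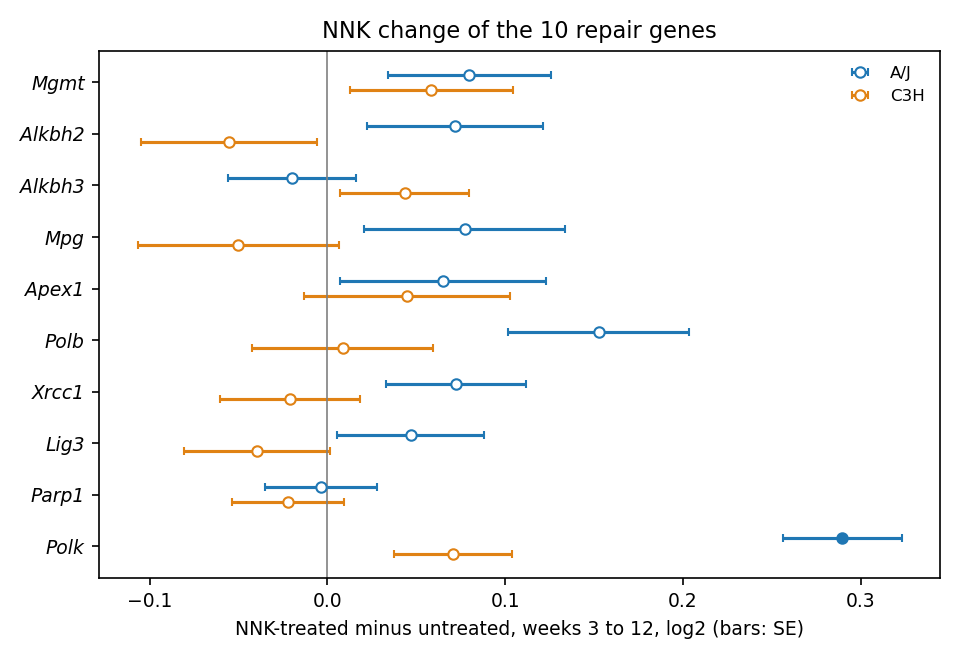
NNK change of the 10 repair genes, NNK-treated minus untreated over weeks 3 to 12 in log2 units, in A/J (blue) and C3H (orange). Points are fitted changes, bars the SE, and the filled point passed limma's adjusted p of 0.05. Polk in A/J lies at 0.29, and every other change lies between -0.06 and 0.15.

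Polk (10411306, chromosome 13) encodes a Y-family polymerase that inserts a base opposite bulky guanine adducts. In A/J at week 3 its levels were 9.40 and 9.36 in NNK-treated arrays, against 9.16 and 9.15 in untreated arrays. At week 6 they were 9.55 and 9.56 in NNK-treated arrays, against 8.94 and 9.09 in untreated arrays. At week 9 they were 9.36 and 9.40 with NNK, against 9.22 and 9.00 untreated. The gap between the groups was widest at week 6, where the NNK-treated arrays were at their highest. At week 12 they were 9.21 and 9.22 with NNK, against 9.08 and 9.10 untreated. Both NNK-treated arrays stood above both untreated arrays of the same week in 4 of 4 weeks, as for 1.67% of all genes. Pooled over weeks 3 to 12, the groups overlapped by a single array, since the first untreated array of week 9 (9.22) lay above the NNK-treated arrays of week 12. The NNK-treated A/J arrays averaged 9.38 ± 0.13 and the untreated arrays of these weeks 9.09 ± 0.089 (SD, n = 8 arrays each).

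In C3H at week 3 Polk was at 9.06 and 9.16 in NNK-treated arrays, against 9.20 and 9.21 in untreated arrays. At week 6 it was at 9.43 and 9.35 with NNK, against 9.18 and 9.14 untreated. At week 9 it was at 9.29 and 9.34 with NNK, against 9.32 and 9.22 untreated. The direction thus differed between these weeks, with NNK below untreated at week 3 and above it at week 6. At week 12 it was at 9.17 and 9.20 with NNK, against 9.11 and 9.07 untreated. The C3H arrays averaged 9.25 ± 0.12 with NNK and 9.18 ± 0.076 untreated (SD, n = 8 arrays each), and the groups overlapped.

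By week, the A/J change of Polk was 0.22 ± 0.067 at week 3 (adjusted p = 0.138, limma), 0.54 at week 6 (adjusted p = 5.48e-05), 0.27 at week 9 (adjusted p = 0.0411) and 0.12 at week 12 (adjusted p = 0.735). Of all genes 0.354%, 7.27%, 1.54% and 0.0736% passed at these weeks. The week 9 call was lost when either NNK-treated array of week 9 was left out (0.292 and 0.245, adjusted p = 0.111 and 0.337), without the second untreated array of week 9 (0.16, adjusted p = 0.359), and narrowly without any of 12 arrays of other groups (0.268 each, adjusted p up to 0.0541). The C3H changes were -0.10, 0.23, 0.05 and 0.10 at weeks 3, 6, 9 and 12, with none called by limma. By limma's F test of whether the weekly changes differ from one another, Polk had an adjusted p of 0.103 in A/J and of 1 in C3H. The F test called 0 of the 10 genes in either strain, against 0.221% of all genes in A/J and 0% in C3H. At an unadjusted p under 0.05, 1 of the 10 passed in each strain, Polk, beside 2326 of all genes in A/J and 689 in C3H. In A/J the NNK-treated arrays of week 6, where Polk was highest, had 9.94 and 10.6 for the mean of the acute phase and mesothelium markers, against 9.22 and 9.17 in the untreated arrays of that week. The cornified skin markers were at 7.80 and 7.76 with NNK and at 11.2 and 11.6 untreated in these arrays. The first NNK-treated array also had the highest neutrophil mean (9.76, beside 8.43 in the second and 7.83 and 7.87 untreated) and the highest proliferation mean (9.80, beside 8.69 in the second and 8.36 and 8.49 untreated). The part of these markers in the week 6 change was not tested. At week 9 the mean of 3 liver markers was 9.04 and 9.66 in the untreated A/J arrays, against 8.465 and 8.265 with NNK. The part of the liver markers in the week 9 change was not tested.

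**Figure D4:**
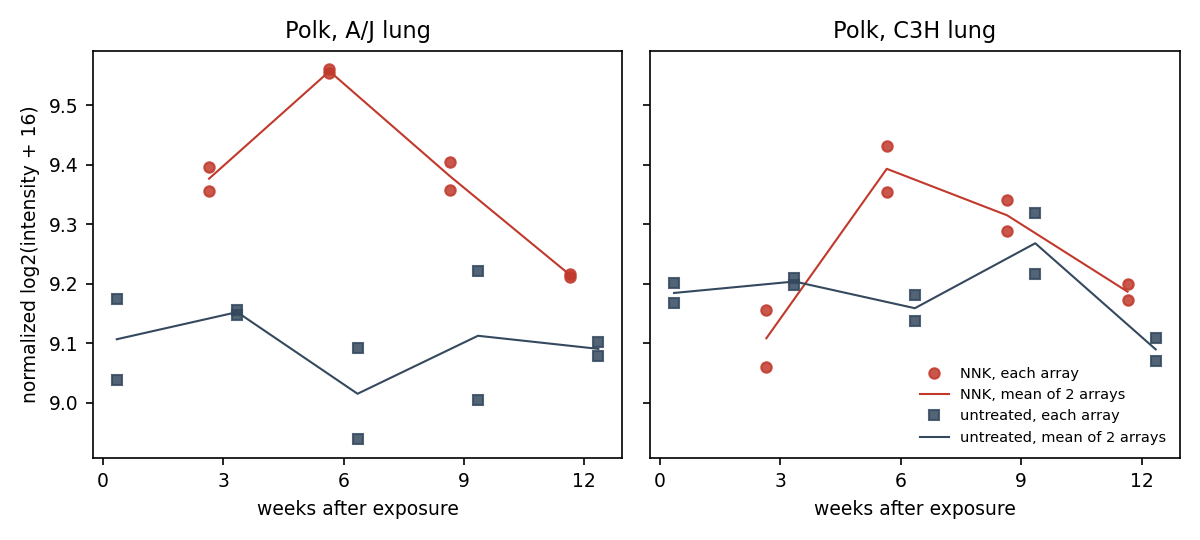
Polk level in each array as normalized log2(intensity + 16) against the week after exposure, in A/J (left) and C3H (right), for NNK-treated (red circles) and untreated (dark squares) lungs, with lines through the means of 2 arrays. In A/J the NNK-treated arrays stand above the untreated arrays of each week, by most at week 6. In C3H they stand below at week 3 and above at week 6.

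The strain difference of Polk had opposite signs in the 2 treatments. NNK-treated arrays had 9.21, 9.38 and 9.56 in A/J, against 9.06, 9.24 and 9.43 in C3H, and A/J was higher by 0.13 ± 0.033 (adjusted p = 0.00206, limma). Untreated arrays had 8.94, 9.10 and 9.22 in A/J, against 9.07, 9.19 and 9.32 in C3H, with a difference of -0.09 ± 0.030 (adjusted p = 0.0179, limma). The ranges overlapped in both treatments. The NNK-treated call was lost without week 3 (0.09, adjusted p = 0.0854). The untreated call was lost on the deposited scale (-0.07, adjusted p = 0.0849) and without any of 3 untreated A/J arrays, the first of week 0 (-0.072), the first of week 6 (-0.0702) or the second of week 9 (-0.0639), with adjusted p up to 0.0542.

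The Polk rise in A/J kept its call in all 36 fits that left out 1 array, at 0.263 to 0.317. A further fit left out week 6, whose untreated A/J arrays carried skin markers, and the untreated A/J week 0 array with raised Lor. There the rise was 0.205 (adjusted p = 0.00683, limma). The larger change in A/J than in C3H was less stable: it was lost without week 6 and that array (0.189, adjusted p = 0.289) and without week 3 (0.185, adjusted p = 0.1). It was also lost, at 0.2 to 0.22 and adjusted p of 0.0512 to 0.0657, without any of 9 single arrays. In A/J these were the second NNK-treated array of week 9 and the first untreated of week 6. In C3H they were the first NNK-treated of weeks 3 and 12, the second of week 6, and the first untreated of weeks 3, 6, 9 and 12. The ranges of other cells' markers also differed between NNK-treated and untreated A/J arrays. The mean of 5 ciliated cell markers spanned 9.93 to 10.34 in NNK-treated A/J arrays and 9.69 to 10.09 in untreated ones of the same weeks, against 9.57 to 9.84 and 9.57 to 9.73 in C3H. The mean of 7 neutrophil markers spanned 8.14 to 9.76 with NNK and 7.83 to 8.55 untreated in A/J, and that of 5 endothelial markers 12.30 to 12.45 with NNK and 12.42 to 12.60 untreated. The mean of 11 proliferation genes spanned 8.61 to 9.80 with NNK and 8.36 to 8.94 untreated in A/J, and that of 6 alveolar type 2 markers 13.01 to 13.20 with NNK and 12.98 to 13.05 untreated. Their part in the Polk result was not tested.

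Transcription of mouse Polk after DNA damage has been linked to p53, so its level is set beside 8 p53 target genes that respond to NNK (Psrc1, Ccng1, Phlda3, Eda2r, Zmat3, Sesn2, Trp53inp1 and Mdm2). This list was chosen knowing earlier results on the same arrays, so its direction is no independent evidence. All 8 rose in A/J, with a median change of 0.49, where 7.44% of all genes rose. In C3H 2 passed, Psrc1 by 0.79 and Ccng1 by 0.24, where 0.0803% of all genes changed. All 8 were higher with NNK in C3H too. Their mean level spanned 9.84 to 10.26 in NNK-treated A/J arrays and 9.35 to 9.63 in untreated ones, against 9.71 to 9.96 with NNK and 9.57 to 9.68 untreated in C3H. Their median change by week in A/J was 0.518, 0.711, 0.376 and 0.233 at weeks 3, 6, 9 and 12, beside 0.22, 0.54, 0.27 and 0.12 for Polk on the same arrays. In C3H it was 0.284, 0.257, 0.0872 and 0.0385, beside -0.10, 0.23, 0.05 and 0.10 for Polk. Whether p53 has a part in the Polk change was not tested.

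The 2 annotated starts of Polk are shown because Polk is the member that NNK changed, and the first of 2 starts of Mgmt because Mgmt is the direct route for O6-methylguanine and did not pass the test. The windows are the 250 bases before each start in RefSeq for GRCm38.p6, the C57BL/6J reference, which is neither strain measured, each written on its gene's own strand.
Polk start 1, chr13:96542580-96542829, minus strand, with a GC box in capitals: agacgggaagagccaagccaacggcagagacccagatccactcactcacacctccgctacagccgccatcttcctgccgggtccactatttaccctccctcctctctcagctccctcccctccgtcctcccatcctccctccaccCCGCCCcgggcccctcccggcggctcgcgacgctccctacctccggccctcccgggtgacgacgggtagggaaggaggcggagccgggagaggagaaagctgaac
Polk start 2, chr13:96519188-96519437, minus strand, with a p53 half-site in capitals: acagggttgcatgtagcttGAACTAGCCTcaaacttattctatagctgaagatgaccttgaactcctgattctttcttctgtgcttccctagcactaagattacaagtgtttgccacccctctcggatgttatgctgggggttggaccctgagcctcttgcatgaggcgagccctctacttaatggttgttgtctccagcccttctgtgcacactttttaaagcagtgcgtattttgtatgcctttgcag
Mgmt start 1, chr7:136894336-136894585, plus strand, with GC boxes in capitals: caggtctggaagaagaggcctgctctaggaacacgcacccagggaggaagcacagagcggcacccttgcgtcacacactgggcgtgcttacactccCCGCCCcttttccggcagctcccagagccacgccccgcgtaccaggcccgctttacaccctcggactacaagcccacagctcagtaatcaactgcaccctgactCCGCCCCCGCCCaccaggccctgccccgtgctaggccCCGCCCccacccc
The p53 half-site was searched as its usual 10-base consensus, which reads alike on both strands. Its single match among the windows of these genes was GAACTAGCCT in the window of Polk start 2, with its first base at position -231. Such a match stands in 7.13% of all 32851 windows given, and among 7 windows of 6 of the p53 target genes, 2 did (Ccng1 and Mdm2). Polk start 2 lies downstream of start 1, whose window held no half-site. Whether transcription begins at start 2 in lung was not tested. The start 2 window had 3 CpG (C followed by G) and 46.8% GC, against 19 CpG and 68.0% GC before start 1. The GC box was searched as GGGCGG or its complement CCGCCC. It occurred in 6 of 11 windows of the 9 repair genes matched, against 32.7% of all windows, with 4 boxes before Mgmt start 1 and 0 before Mgmt start 2, which is not printed. Polb had no entry. Such matches describe the letters of the window and show no binding.

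None of the other repair genes passed the test for NNK. The median difference between NNK-treated and untreated A/J lungs was 0.072 over the 10, beside 0.015 over all genes, and the 10 were not tested as a group. Polb came nearest to the threshold. Its levels were 8.73, 8.87 and 9.03 in NNK-treated A/J arrays, against 8.51, 8.73 and 8.91 in untreated A/J arrays of weeks 3 to 12, so that the groups overlapped. The change was 0.15 ± 0.051 (adjusted p = 0.0588, limma), positive in 4 of 4 weeks, and it reached 0.22 at week 6 and 0.26 at week 9 (adjusted p = 0.187 and 0.175, limma). It passed without week 3 (0.19, adjusted p = 0.0265) and when 1 of 6 single arrays was left out (0.152 to 0.189, adjusted p of 0.0209 to 0.0446): the first NNK-treated A/J array of week 3, the second untreated A/J array of week 3, the first untreated A/J arrays of weeks 9 and 12, and either NNK-treated C3H array of week 3. In C3H the Polb change was 0.01 ± 0.051. The ciliated cell marker mean had a median of 10.14 with NNK and 9.82 untreated in A/J arrays of weeks 3 to 12. In C3H it was 9.65 with NNK and 9.65 untreated. The part of these markers in the Polb change was not tested.

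Mgmt, the defence against O6-methylguanine, did not pass in either strain. It had 7.83, 8.08 and 8.17 in NNK-treated A/J arrays, against 7.76, 7.96 and 8.12 in untreated A/J arrays of weeks 3 to 12. The change was 0.08 ± 0.046 in A/J (95% interval -0.017 to 0.176) and 0.06 ± 0.046 in C3H (-0.038 to 0.155). At week 3 in C3H the Mgmt difference was 0.24 (unadjusted p = 0.0158, adjusted p = 0.243, limma), with 8.23 and 8.05 in NNK-treated arrays against 7.89 and 7.91 in untreated arrays. Those NNK-treated arrays are the ones with raised acute phase and mesothelium markers, whose part in it was not tested.

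For the remaining genes the A/J changes were 0.07 for Alkbh2, -0.02 for Alkbh3, 0.08 for Mpg, 0.06 for Apex1, 0.07 for Xrcc1, 0.05 for Lig3 and -0.0038 for Parp1. The smallest adjusted p among them was 0.243, of Xrcc1. Without the second untreated A/J array of week 3, the one with raised acute phase and mesothelium markers, the Mpg change was 0.138. In C3H the changes of these 7 genes lay between -0.06 (Alkbh2) and 0.04 (Apex1). No gene of the 10 had NNK-treated arrays wholly apart from the untreated arrays of weeks 3 to 12 in either strain, where 0.461% of all genes did in A/J and 0.0535% in C3H. By single weeks in A/J, Alkbh2 at week 3 (0.22) and Polb at weeks 6 and 9 had an unadjusted p under 0.05 besides Polk. In C3H 0 of the 10 passed limma at any week, where 0.0936%, 0.0134%, 0% and 0% of all genes did at weeks 3, 6, 9 and 12. An unadjusted p under 0.05 was reached there by Mgmt at week 3, by Alkbh2 (-0.24) and Polk (0.23) at week 6 and by Apex1 (0.27) at week 9.

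Among related repair genes, 5 rose with NNK in A/J, a count to be read beside the 7.44% of all genes that rose there, so that only the single genes are described. Of 22 other base excision repair genes tested, 2 rose and 0 fell: Lig1, the replicative DNA ligase, by 0.21 (adjusted p = 0.0339, limma), and Pole, the catalytic subunit of polymerase epsilon, by 0.37 (adjusted p = 0.0368). Of 9 other AlkB and related genes 1 rose, Ascc1, a subunit of the complex that works with Alkbh3 in human cells, by 0.19 (adjusted p = 0.00922). Of 13 other translesion genes 2 rose, Mad2l2, a subunit of polymerase zeta, by 0.15 (adjusted p = 0.0144), and Ube2a, the ubiquitin-conjugating enzyme that acts on PCNA with Rad18, by 0.17 (adjusted p = 0.0376). None of 5 mismatch repair and 16 nucleotide excision repair genes passed. The lists' median changes were 0.052, 0.006, 0.049, 0.059 and 0.009 in this order, beside 0.015 over all genes, and none of their genes passed for NNK in C3H or in the test of whether the NNK change differed between the strains.

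All 5 calls were lost on the A/J arrays alone, with adjusted p between 0.0503 and 0.123, with the same sizes. Without week 6 and 1 untreated week 0 array Lig1 was at 0.145 and Pole at 0.249 (adjusted p = 0.259 and 0.249), and Ascc1 and Mad2l2, at 0.19 and 0.135, kept about their size but did not pass (adjusted p = 0.079 and 0.0604). Without the first NNK-treated A/J array of week 6, Lig1 was at 0.165 (adjusted p = 0.103), Pole at 0.265 (adjusted p = 0.111) and Ube2a at 0.14 (adjusted p = 0.11). Untreated A/J arrays mattered as much, since Lig1 was at 0.157 without the first of week 9 (adjusted p = 0.0853), Pole at 0.299 without the first of week 3 (adjusted p = 0.113) and Ube2a at 0.134 without the second of week 9 (adjusted p = 0.0904). Of 11 proliferation genes, all were higher with NNK in both strains, with medians of 0.369 in A/J, where 5 passed, and 0.419 in C3H, where 0 passed by limma and 9 had an unadjusted p under 0.05, and their part in these calls was not tested. Over the 36 fits that each left out 1 array, Lig1 and Ube2a passed in 26, Pole in 25, Mad2l2 in 35 and Ascc1 in 36. At week 6, where 7.27% of all genes passed and both untreated A/J arrays had the raised skin markers, whose part was not tested, Polh, another Y-family polymerase, was higher by 0.43 (adjusted p = 0.0161), and the mismatch repair genes Msh6 by 0.43 (adjusted p = 0.026) and Pms2 by 0.32 (adjusted p = 0.0377). Of the 22 other base excision repair genes tested, 2 also passed at week 6 in A/J, each higher with NNK.

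Between the untreated strains these lists differed at many genes, beside 56.1% of all genes. Of the 22 base excision genes 4 were higher and 9 lower in A/J, with Pold1, a subunit of polymerase delta, at 0.40 and Mutyh, the adenine glycosylase, at -0.25. Of the 9 AlkB and related genes 1 was higher and 4 lower, of the 13 translesion genes 2 and 4, with Mad2l2 at -0.33, and of the 5 mismatch repair genes 2 and 1. Of 16 nucleotide excision genes 7 were higher and 1 lower, Ercc1, a subunit of the incision nuclease, at -0.49 (adjusted p = 1.28e-08, limma).

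Over 12 weeks in untreated lungs, Alkbh2 and Mpg rose in A/J and 0 of the 10 changed in C3H. The A/J trend was 0.30 ± 0.089 over 12 weeks for Alkbh2 (adjusted p = 0.0203, limma) and 0.28 ± 0.10 for Mpg (adjusted p = 0.0494). Of all genes 22.8% had a trend in A/J, 17.5% upward, and 0.863% in C3H. On the normalized scale 76.9% of the A/J calls were upward, and on the deposited scale 40.6%, where neither Alkbh2 (0.22, adjusted p = 0.123) nor Mpg (0.12, adjusted p = 0.363) passed. Alkbh2 was at 9.27 and 8.98 at week 0, 9.16 and 9.11 at week 3, 9.29 and 9.36 at week 6, 9.37 and 9.45 at week 9, and 9.54 and 9.18 at week 12 in A/J. The weeks 0 and 3 arrays were the low ones, apart from the second array of week 12. Mpg was at 7.75 and 7.66 at week 0, 7.79 and 8.28 at week 3, 7.82 and 8.05 at week 6, 8.12 and 8.04 at week 9, and 8.08 and 7.99 at week 12 in A/J. Both week 0 arrays lay below all later ones. The Alkbh2 trend was lost without the second array of week 0 (0.18, adjusted p = 0.219) and without the first array of week 12 (0.156, adjusted p = 0.244), and the Mpg trend passed in 7 of 36 fits with 1 array omitted, lying between 0.183 and 0.377. In C3H the gene with the smallest p was Mgmt, with a trend of 0.22 ± 0.082 (unadjusted p = 0.0143, adjusted p = 0.244, limma). Its C3H arrays were at 7.74 and 7.66 at week 0 and at 7.83 or above at all later weeks. Unadjusted, 1 of the 10 genes and 1813 of all genes had a C3H trend with p under 0.05.

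**Figure D5:**
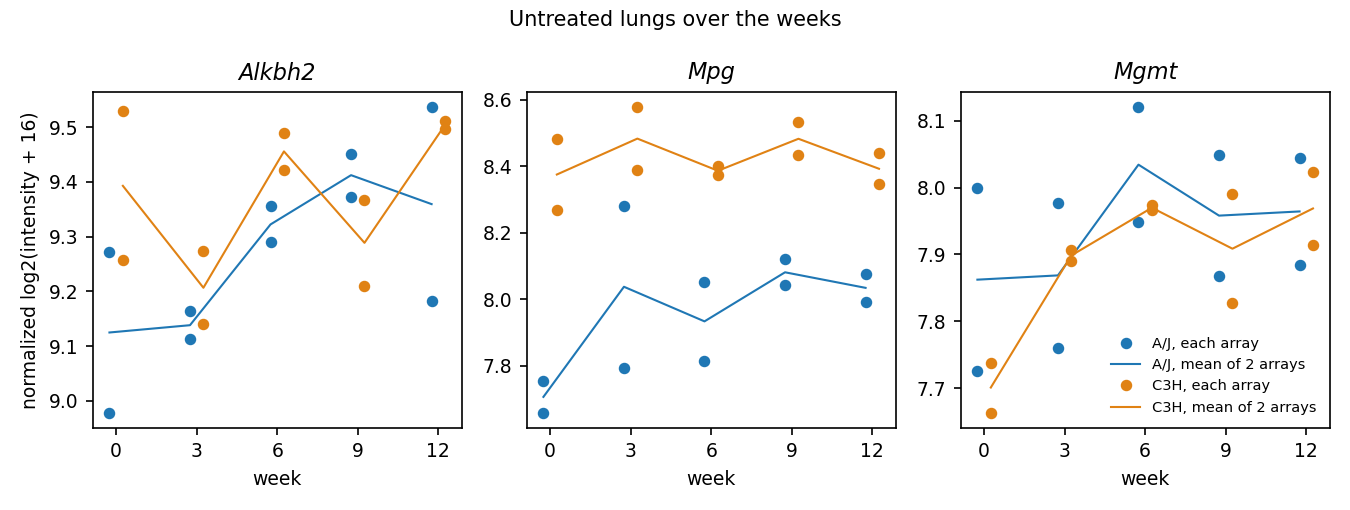
Levels of Alkbh2, Mpg and Mgmt in each untreated array as normalized log2(intensity + 16) against the week, in A/J (blue) and C3H (orange), with lines through the means of 2 arrays. The week 0 arrays of A/J Mpg and of C3H Mgmt lie below all later arrays of the same strain.

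The genes most like each changed member over the 36 arrays, after each strain's mean was taken off, are given as a description, since all of them share arrays and normalization. For Polk these were Plcd4 (Pearson r = 0.844), Nrg1 (0.826) and Exoc4 (0.815). For Polb they were Cep290 (0.845), Ift80 (0.824) and Bbs7 (0.796), for Mpg Usf1 (0.86), Asl (0.84) and Adck1 (0.835), and for Xrcc1 Tctn1 (0.822), Zbtb48 (0.813) and Trabd (0.811). The first for Lig3, Parp1, Alkbh2 and Alkbh3 were Naa25 (0.808), Nucb1 (0.735), Gm16551 (0.717) and Pafah1b2 (0.654). Within the 10, the closest pairs were Mpg with Xrcc1 (r = 0.682) and Polb with Polk (r = 0.622).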

How the data were processed

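The deposited intensities, linear and 1 per probe set and array, came from the PLIER method as run by the authors in Expression Console (Affymetrix), per the submitters' processing notes. Software versions, settings and build: not given in the sources used here. The probe sequences in the 2 strains were not used here.

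The intensities were turned to log2(intensity + 16) and quantile-normalized between arrays, since array medians spanned 0.268. Of 35556 probe sets 21789 had 1 symbol, and the one with the highest mean was kept per gene. Genes in the lowest 25% by mean level were left out, and the other 14953 went into limma 3.58.1 in R 4.3.3. A mean was fitted for each of 18 groups of 2 arrays (18 residual degrees of freedom), with Benjamini-Hochberg adjustment at 0.05. The NNK change was the mean of 4 weekly differences, and the strain difference the mean over weeks. The code was tested on simulated data.

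The 10 genes, the lists and the naming rule (all 10, the list genes that passed, and the 3 genes most like each changed member) were chosen with earlier results of these data known. Alternatives were the deposited scale, a pseudocount of 1, no filter or one at the 50th percentile, all probe sets averaged, array weights, trended robust variances, array number as block, a strain's arrays alone, no week 6 with 1 untreated A/J week 0 array, and each array left out. Leaving out week 3 was added after seeing the data. The number of arrays limits the precision.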

Additional observations from a re-analysis of the deposited data

Results flagged for a closer look

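Each gene's arrays of 1 strain and treatment were searched for a single array standing far from the rest, in 40 sets of arrays. Chance marks about 1 in 20 sets, and 2 were found. Apex1 was 9.358 in the first untreated C3H array of week 3, against 8.974 in the next highest untreated C3H array, a gap of 0.687 of the whole range. Without that array the untreated Apex1 strain difference was 0.0186 in place of -0.0282, and neither passed. Parp1 was 8.936 in the first untreated C3H array of week 0, against 9.013 in the next lowest, a gap of 0.47 of the range, and its strain difference kept its call without any single array (0.288 to 0.324).

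The NNK change of Polk differed between the strains, at 0.29 in A/J and 0.07 in C3H. The difference of 0.219 ± 0.047 (SE) had an adjusted p of 0.0292 by limma's interaction contrast.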

How the results depend on the processing

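Under the 11 or fewer alternatives run for each, the Polk rise in A/J (0.205 to 0.311) and the strain differences of Alkbh3, Parp1, Mpg, Polb and Xrcc1 kept their direction and call, also without any 1 array. The count of A/J week trends, 2, became 0 on the deposited scale, with array weights, on the A/J arrays alone and without week 6 together with the second untreated A/J array of week 0, and 1 with the 50th percentile filter, trended robust variances, the replicate block or without week 3. Leaving out that week 0 array alone also ended both trends (Alkbh2 0.18, Mpg 0.242, adjusted p = 0.219 and 0.192), and week 6 alone was not left out. The NNK count in A/J became 2 without week 3, and the count for the difference between strains 0 without week 3, or without week 6 and that array. Leaving out 1 array gave counts of 1 to 3 for NNK in A/J, 0 to 1 for its difference from C3H, 0 to 2 for the A/J trend, 1 to 2 for the A/J weekly calls, 0 to 1 for the A/J F test (1 without the first untreated array of week 9), and 5 to 8 for the untreated strain difference. Mgmt differed between NNK-treated strains without week 3 (0.15, adjusted p = 0.0204).

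Changes of sign touched uncalled values alone. On the deposited scale they were Parp1 NNK in A/J (0.00805), Mgmt between strains (-0.0365) and Mgmt trend in A/J (-0.0305). Without week 6 and that array they were Mgmt, Apex1 and Lig3 strain with NNK (-0.0393, -0.0515, -0.00869), Parp1 in A/J (0.00633), Alkbh2 and Polb in C3H (0.00547, -0.0391), and Mgmt and Apex1 between strains (-0.0443, -0.0501). Without week 3 they were Apex1 strain untreated (0.0339) and Mgmt in C3H (-0.00198). Without 1 array, the NNK change in A/J ranged from -0.0416 to 0.00182 for Alkbh3 and -0.0264 to 0.0188 for Parp1. In C3H it ranged from -0.0136 to 0.103 for Apex1, -0.026 to 0.043 for Polb and -0.00443 to 0.0983 for Polk at week 9. Its difference between strains ranged from -0.0385 to 0.0784 for Apex1, -0.00572 to 0.0485 for Mgmt and -0.00418 to 0.041 for Parp1. The strain difference ranged from -0.0749 to 0.0186 for untreated Apex1, and with NNK from -0.00366 to 0.053 for Apex1 and -0.016 to 0.0346 for Lig3. The C3H trend of Mpg ranged from -0.0714 to 0.0987. The causes were not tested.

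The array numbers do not pair the groups: the difference of array 1 and array 2 correlated between groups at -0.38 to 0.424, with a median of 0.0173 over 153 pairs of groups. The replicate block left Polk in A/J at adjusted p = 1.23e-05 and changed 1 call of the members, the Mpg trend (adjusted p = 0.0532, count 1). The residual SD of the median gene (0.106 in A/J, 0.0798 in C3H) and 2 arrays a group limit what could be detected. Mgmt and Mpg lie below the 50th percentile and have no value under that filter. Single weeks and F tests were run without normalization, with the block and without each array.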
